A study of Homo sapiens with 24 samples.

Results

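The collagen-modifying hydroxylases and lysyl oxidases described here are 10 genes, chosen by name from both deposited count tables: the prolyl 4-hydroxylase alpha subunits P4HA1, P4HA2 and P4HA3, the lysyl hydroxylases PLOD1, PLOD2 and PLOD3, and the lysyl oxidases LOX, LOXL1, LOXL2 and LOXL3. All 10 were found among the 58735 genes of the tables, and all 10 were among the 19952 genes that passed the filter on low counts and were tested. The RNA came from HEK293T, a human embryonic kidney cell line that carries the SV40 large T antigen. The cells were labelled MIR210HG-KO (the long non-coding host gene of miR-210 knocked out), MIR210-KO (the gene of microRNA miR-210 knocked out) or WT, and each genotype was cultured for 24 h in hypoxia at 1% oxygen or in normoxia at 21% oxygen. Each of the 6 groups held 4 libraries, which makes 24. Clone or pool is not stated for either knockout, and nothing in the labels ties the libraries of a group to separate cultures, so p-values measure only the spread between these libraries, which may be technical.

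Collagen chains are modified in the endoplasmic reticulum before they are secreted. Prolyl 4-hydroxylase, a tetramer of alpha subunits with P4HB, makes the hydroxyproline that stabilises the triple helix, and the PLOD enzymes hydroxylate lysines that later carry crosslinks and sugars. Both kinds of enzyme use molecular oxygen, iron and 2-oxoglutarate. Outside the cell, LOX and its relatives are copper-dependent amine oxidases that oxidise lysines and hydroxylysines so that collagen and elastin can crosslink. P4HA1, P4HA2, PLOD2, LOX and LOXL2 are known in many cell types as genes induced through the hypoxia-inducible factors HIF.

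Total counts ran from 25556776 to 37858947 per library. MIR210HG averaged 0 CPM (reads of a gene over the TMM-scaled library size) in the hypoxia MIR210HG-KO libraries, 20.7 ± 1.46 in hypoxia MIR210-KO and 19.1 ± 1.72 in hypoxia WT (SD, n = 4 each). Its normoxia levels were 0, 3.48 ± 1.07 and 5.70 ± 0.647 CPM in the same genotype order. Reads over the miR-210 precursor summed to 0 in hypoxia MIR210HG-KO, 33 in hypoxia MIR210-KO and 30 in hypoxia WT, so they did not separate MIR210-KO from WT. Libraries of this kind do not measure the mature microRNA, and the deleted bases are not given in the sources used here, so MIR210-KO is used as the label gives it. All 8 genes of an HEK293 marker list reached at least 1 CPM in every group, but their sum differed between genotypes. It was 321 to 342 CPM in hypoxia MIR210HG-KO, 767 to 830 in hypoxia MIR210-KO and 671 to 790 in hypoxia WT. In normoxia it was 282 to 295 CPM in MIR210HG-KO, 674 to 707 in MIR210-KO and 469 to 495 in WT, so the normoxia groups did not overlap. Of 8 fibroblast markers 2 to 4 reached at least 1 CPM in a group, and the 8 summed to 25.4 to 47.6 CPM. Endothelial and blood lists of 3 genes each summed to at most 0.350 and 0.808 CPM. All 3 genes of a smooth muscle list reached at least 1 CPM in every group, and they summed to 7.68 to 21.2 CPM. The part of these markers in the results below was not tested. Hypoxia WT replicates 1 and 3, hypoxia MIR210-KO replicate 1 and normoxia MIR210HG-KO replicate 3 stood apart from the rest of their groups in an earlier analysis of these data. The balance of long over short genes, a log2 difference, was −0.009 and −0.114 in hypoxia WT replicates 1 and 3 and 0.413 and 0.332 in hypoxia WT replicates 2 and 4. This balance did not overlap between oxygen levels, at −0.345 to −0.155 in normoxia libraries and −0.114 to 0.413 in hypoxia libraries. The covariate for it used below therefore goes along with oxygen level. Without the 4 libraries that stood apart, 2 of the calls given below were lost, which are named beside their values. Hypoxia and normoxia counts came in separate tables, so an effect of oxygen and a difference between the tables cannot be told apart.

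The mature hsa-miR-210-3p is shown because a genotype is labelled as a knockout of its gene. The seed, bases 2 to 8, is in capitals. RefSeq places hsa-miR-210-3p on GRCh38.p14 at chr11:568112-568133, minus strand.
hsa-miR-210-3p: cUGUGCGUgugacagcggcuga
A match to the 7 seed bases, or to 6 of them followed by an A, was looked for in the 3′ UTR of 1 transcript of each gene. None of the 10 genes held such a match of 7 or 8 bases, against 3.38% of 18927 genes. With 6 bases allowed the count was still 0, against 7.47% of genes.

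The 250 bases before the transcription start are shown for the 3 genes with the highest mean fold change in hypoxia, P4HA1, PLOD2 and LOX. Capitals mark ACGTG or GCGTG, the core that HIF recognises, read on either strand, so that CACGT is ACGTG on the other strand. The sequences are from RefSeq on GRCh38.p14, all on the minus strand and written 5′ to 3′ along the gene: P4HA1 at chr10:73096867-73097116, PLOD2 at chr3:146161185-146161434 and LOX at chr5:122078260-122078509.
P4HA1: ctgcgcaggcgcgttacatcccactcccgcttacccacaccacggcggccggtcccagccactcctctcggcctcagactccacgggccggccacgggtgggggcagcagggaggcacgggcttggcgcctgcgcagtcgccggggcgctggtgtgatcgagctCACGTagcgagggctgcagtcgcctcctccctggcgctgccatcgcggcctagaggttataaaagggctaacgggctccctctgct
PLOD2: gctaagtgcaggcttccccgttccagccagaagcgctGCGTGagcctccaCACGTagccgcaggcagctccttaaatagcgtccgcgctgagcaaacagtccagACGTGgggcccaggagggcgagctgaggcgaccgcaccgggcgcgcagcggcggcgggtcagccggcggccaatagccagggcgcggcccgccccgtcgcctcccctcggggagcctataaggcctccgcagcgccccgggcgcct
LOX: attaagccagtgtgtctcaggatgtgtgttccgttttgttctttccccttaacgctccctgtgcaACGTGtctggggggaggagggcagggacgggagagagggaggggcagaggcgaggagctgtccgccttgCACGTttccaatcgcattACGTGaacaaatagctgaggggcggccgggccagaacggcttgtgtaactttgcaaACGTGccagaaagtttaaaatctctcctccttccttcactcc
P4HA1 held 1 ACGTG, 86 bases upstream of the start. PLOD2 held 3 matches, at 213 bases (GCGTG), 200 bases and 146 bases (both ACGTG). LOX held 4 ACGTG matches, at 185, 116, 98 and 42 bases. Of the other 5 genes with an entry, PLOD1 held 2 GCGTG matches and P4HA2, PLOD3, LOXL1 and LOXL3 held none. P4HA3 and LOXL2 had no entry. Only 1 start per gene was used, the most upstream listed, and LOX had 3 starts listed and LOXL3 2. All starts used lie within the gene positions deposited with the counts. The farthest inside is that of P4HA2, at 132227091, where the 5′ end of the gene is at 132295315. Among the windows shown, the PLOD2 start was at 146161184 and the 5′ end of the gene at 146163653. These positions were 73096866 and 73096974 for P4HA1, and 122078259 and 122078360 for LOX. Of 27305 promoter windows of this length, 43.1% held at least 1 match of either kind, 18.6% held ACGTG, 7.84% held 3 or more matches and 3.21% held 4 or more. A match is a run of letters and no measured binding.

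Levels were compared between genes as TPM, a scale that divides counts by gene length. Averaged over the 24 libraries, P4HA1 had 225 TPM and PLOD2 132 TPM. PLOD1 followed with 51.3 TPM, PLOD3 with 41.8 and LOX with 34.1. P4HA2 (17.3 TPM), LOXL3 (13.7), LOXL1 (12.2) and LOXL2 (10.6) were lower, and P4HA3 averaged 0.662 TPM. The values of every gene in every library are shown in the plot of CPM by group.

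**Figure D1:**
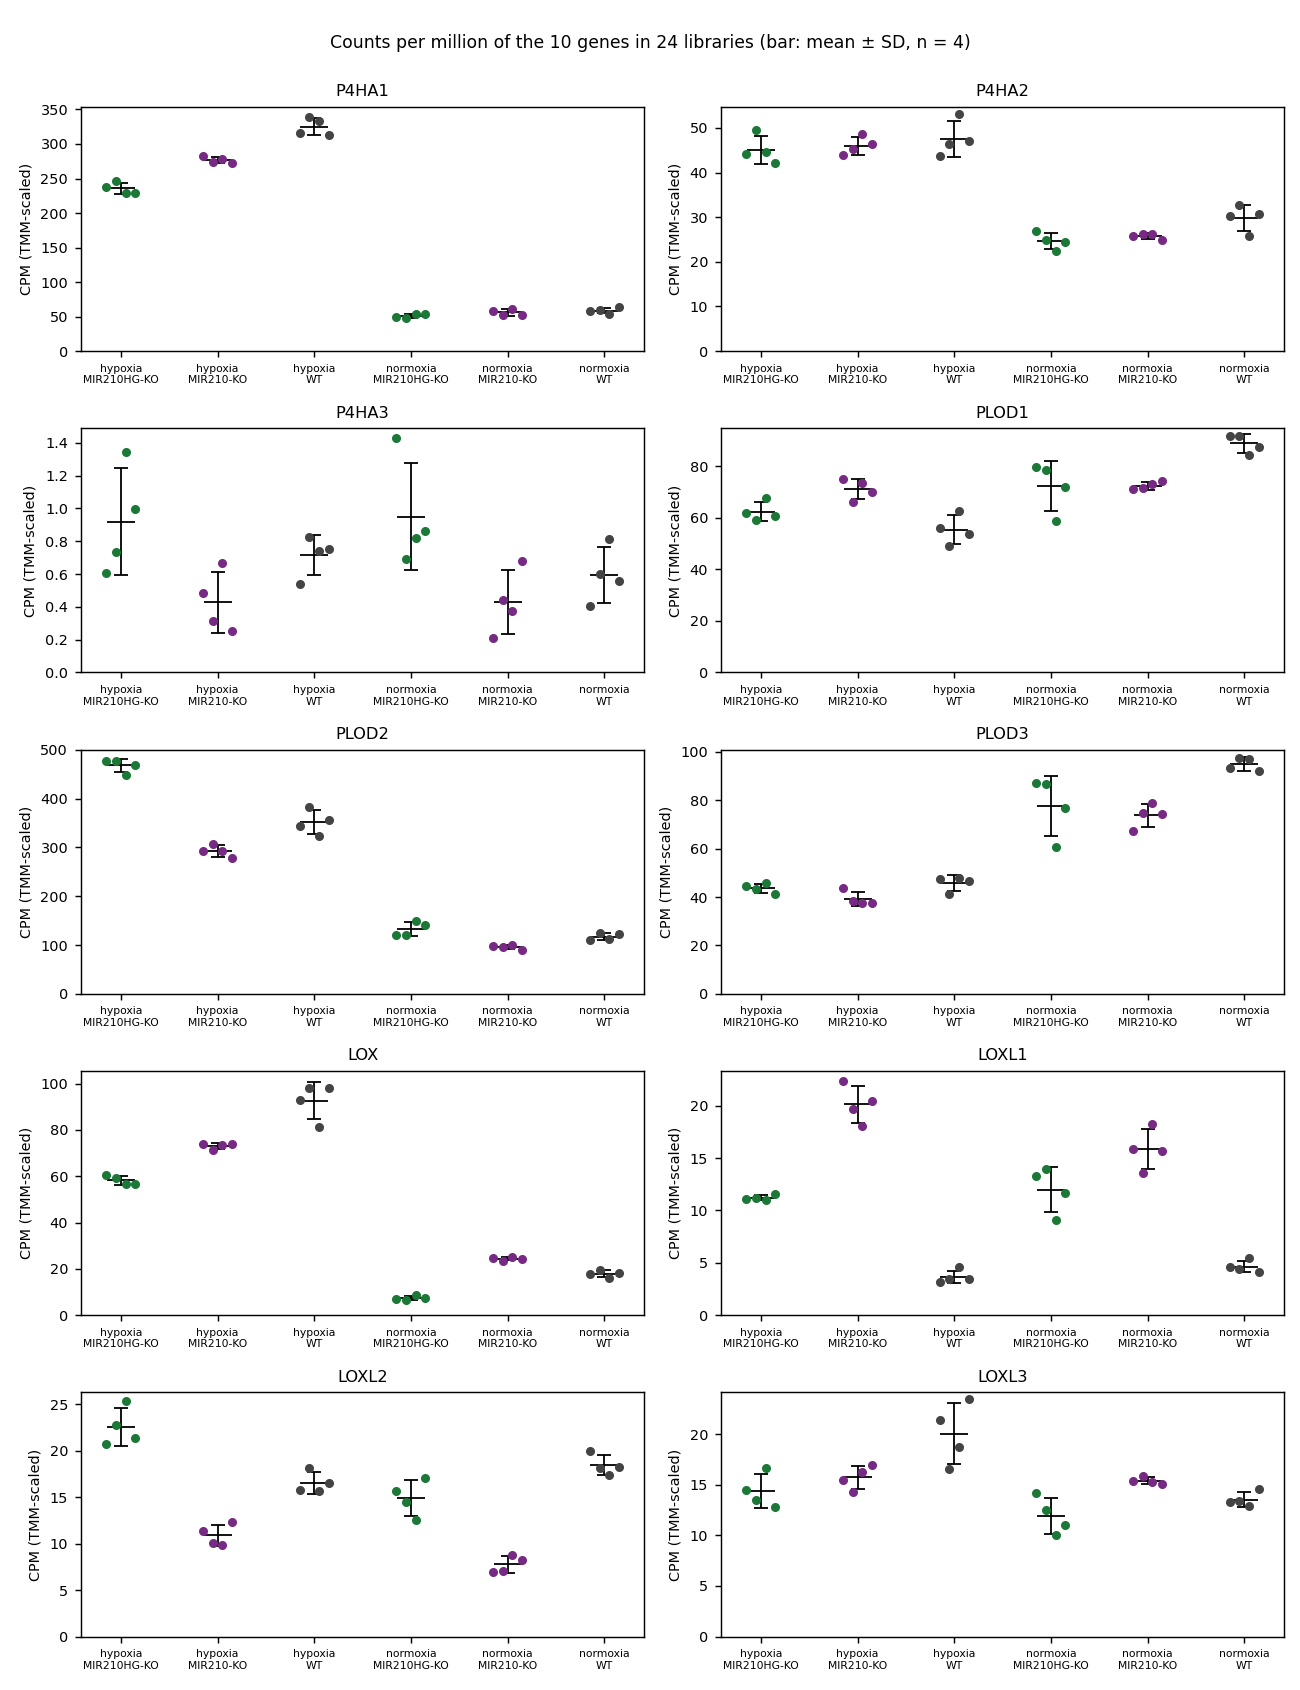
CPM (TMM-scaled, linear axis from 0) of each of the 10 genes in the 24 libraries; points are libraries, bars are the mean and SD of 4 libraries, and each panel has its own scale. P4HA1, P4HA2, PLOD2 and LOX lie higher in all hypoxia libraries than in any normoxia library of the same genotype, PLOD3 lies lower, and LOXL1 lies higher in both knockouts than in WT.

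Hypoxia against normoxia asks how each genotype answered low oxygen. Hypoxia raised P4HA1, P4HA2, PLOD2 and LOX and lowered PLOD3 in MIR210HG-KO, in MIR210-KO and in WT, each with no overlap between the libraries of the oxygen levels. PLOD1 and the LOX relatives differed by genotype, and P4HA3 was called in no genotype. In MIR210HG-KO 6 of the 10 genes were higher and 2 lower at an adjusted p under 0.05 by edgeR's quasi-likelihood test with Benjamini-Hochberg adjustment, where the shares of all tested genes were 25.7% and 28.3%. In MIR210-KO 6 members were higher and 1 lower, where 29.3% of all genes went up and 29.5% down. In WT 5 were higher and 3 lower, where 29.6% of all genes were higher and 30.7% lower. The share of higher genes among the 10 was above that of all genes in each genotype, but the 10 include genes known to be induced through HIF. The share of lower genes was near that of all genes in MIR210HG-KO and WT and below it in MIR210-KO. With 10 genes such shares are coarse. With upper quartile factors 62.9% of all called genes in MIR210HG-KO and 64.1% in MIR210-KO were higher, against 47.6% and 49.8% with TMM factors, and 6 members were higher and 1 lower in each. Libraries did not overlap for 6, 6 and 7 of the 10 genes in MIR210HG-KO, MIR210-KO and WT, where 46.4%, 54.1% and 53.2% of all genes did not. The median log2 fold change of the 10 genes was 0.44 in MIR210HG-KO, 0.42 in MIR210-KO and 0.42 in WT, beside 0.03, 0.04 and 0.002 for all genes.

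**Figure D2:**
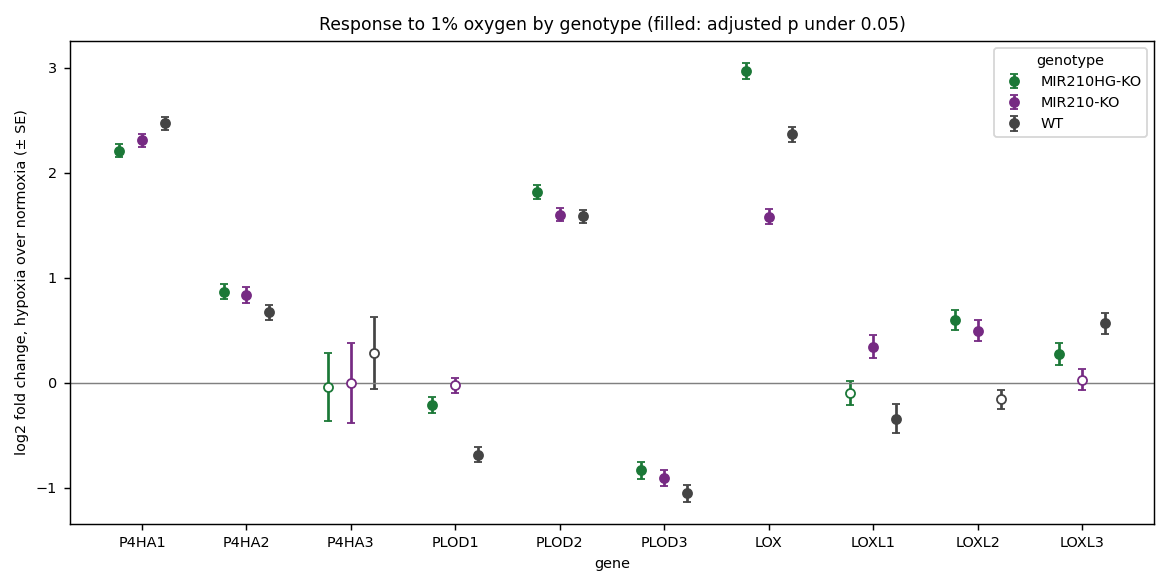
Log2 fold change of hypoxia over normoxia (vertical axis, bars are the standard error) for each gene, with MIR210HG-KO, MIR210-KO and WT side by side from left to right; filled points passed an adjusted p of 0.05. P4HA1 lies between 2.21 and 2.47 in the 3 genotypes, whereas LOX runs from 1.58 in MIR210-KO to 2.97 in MIR210HG-KO.

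Among the prolyl 4-hydroxylase subunits, P4HA1, the main catalytic subunit in most cells, had 238, 246, 229 and 230 CPM in hypoxia MIR210HG-KO libraries and 48.8, 47.2, 54.2 and 53.5 CPM in normoxia MIR210HG-KO libraries. It had 283, 275, 278 and 273 CPM in hypoxia MIR210-KO and 58.4, 51.9, 61.3 and 52.4 CPM in normoxia MIR210-KO. In WT it had 315, 339, 334 and 313 CPM in hypoxia and 57.5, 59.6, 54.3 and 63.2 CPM in normoxia. Every hypoxia library was above every normoxia library, and the hypoxia groups did not overlap each other either, with MIR210HG-KO lowest and WT highest. The fold change was 4.63 in MIR210HG-KO (log2 2.21 ± 0.06, SE), 4.95 in MIR210-KO (2.31 ± 0.06) and 5.54 in WT (2.47 ± 0.06), with adjusted p of 1.1e-23, 1.75e-23 and 5.69e-25. P4HA2, the alternative catalytic subunit, rose less, with log2 fold changes of 0.87 ± 0.07 in MIR210HG-KO, 0.84 ± 0.07 in MIR210-KO and 0.67 ± 0.07 in WT. Its hypoxia libraries spanned 42.2 to 53.2 CPM and its normoxia libraries 22.5 to 32.8 CPM, so no hypoxia library overlapped a normoxia one. P4HA3, the third subunit, had 43 to 121 counts summed over the 4 libraries of a group. Its log2 fold changes of −0.04 ± 0.32, −0.0006 ± 0.38 and 0.28 ± 0.34 in MIR210HG-KO, MIR210-KO and WT were within their errors, and at this depth a change of that size was not detectable.

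Among the lysyl hydroxylases, PLOD2, the enzyme that hydroxylates lysines in collagen telopeptides, rose in every genotype. It had 476, 476, 449 and 470 CPM in hypoxia MIR210HG-KO, against 121, 120, 149 and 142 CPM in normoxia MIR210HG-KO. In MIR210-KO it had 293, 306, 292 and 278 CPM in hypoxia, against 98.4, 96.2, 100.5 and 90.7 CPM in normoxia. In WT it had 344, 383, 324 and 357 CPM in hypoxia, against 111, 124, 112 and 122 CPM in normoxia. The 3 hypoxia groups did not overlap, and MIR210HG-KO was highest among them. The fold change was 3.52 in MIR210HG-KO (log2 1.82 ± 0.06), 3.03 in MIR210-KO (1.60 ± 0.06) and 3.00 in WT (1.59 ± 0.06). PLOD3, which also transfers sugars to hydroxylysine, fell in every genotype. Its hypoxia libraries lay between 37.4 and 47.9 CPM and its normoxia libraries between 60.6 and 97.6 CPM. The log2 fold changes were −0.83 ± 0.08 in MIR210HG-KO, −0.91 ± 0.08 in MIR210-KO and −1.05 ± 0.08 in WT. Exons of ZNHIT1, on the other strand, cover 7.56% of the PLOD3 exon bases. ZNHIT1 was also lower in hypoxia, at −0.51 ± 0.08 in MIR210HG-KO, −0.44 ± 0.08 in MIR210-KO and −0.39 ± 0.08 in WT. The part of ZNHIT1 reads in the PLOD3 values was not tested. PLOD1, the hydroxylase of helical lysines, had 56.1, 49.02, 62.7 and 53.8 CPM in hypoxia WT, against 91.9, 91.9, 84.4 and 87.6 CPM in normoxia WT, without overlap, and fell by 0.68 ± 0.07 on the log2 scale there. In MIR210-KO its log2 fold change was −0.02 ± 0.07 (adjusted p = 0.795). In MIR210HG-KO it was −0.21 ± 0.07 (adjusted p = 0.016) with overlapping libraries; that call was lost without normoxia MIR210HG-KO replicate 1 (−0.17) or 2 (−0.17) or hypoxia MIR210HG-KO replicate 2 (−0.19), with upper quartile factors (−0.08), with only the groups compared (−0.19), and with a covariate for the balance of long and short genes, where the sign turned (0.02).

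Among the lysyl oxidases, LOX rose most. It had 60.5, 59.3, 56.5 and 56.8 CPM in hypoxia MIR210HG-KO and 7.10, 6.41, 8.84 and 7.37 CPM in normoxia MIR210HG-KO. It had 73.7, 71.3, 73.4 and 73.8 CPM in hypoxia MIR210-KO and 24.6, 23.5, 25.2 and 24.3 CPM in normoxia MIR210-KO. In WT it had 93.0, 98.03, 81.1 and 98.3 CPM in hypoxia and 18.0, 19.5, 16.2 and 18.1 CPM in normoxia. No 2 of the 6 groups overlapped: WT was highest in hypoxia, whereas MIR210-KO was highest in normoxia and MIR210HG-KO lowest in both. The fold change was 7.83 in MIR210HG-KO (log2 2.97 ± 0.08), 3.00 in MIR210-KO (1.58 ± 0.07) and 5.16 in WT (2.37 ± 0.07). LOXL2, a relative with scavenger receptor domains, rose by 0.60 ± 0.09 in MIR210HG-KO and 0.50 ± 0.10 in MIR210-KO, and had a log2 fold change of −0.16 ± 0.09 in WT (adjusted p = 0.14). LOXL3, another such relative, rose by 0.57 ± 0.10 in WT and had 0.03 ± 0.10 in MIR210-KO. Its log2 fold change of 0.27 ± 0.10 in MIR210HG-KO (adjusted p = 0.0256) was no longer called without normoxia MIR210HG-KO replicate 3 (0.21) or 4 (0.24), without hypoxia MIR210HG-KO replicate 3 (0.19), without the 4 libraries that stand apart (0.20) or with the covariate (0.28, adjusted p = 0.215). LOXL1, known for its role in elastic fibres, had log2 fold changes of −0.10 ± 0.11 in MIR210HG-KO (not called), 0.35 ± 0.11 in MIR210-KO (adjusted p = 0.00608) and −0.34 ± 0.13 in WT (adjusted p = 0.0291), with overlapping libraries in each. The WT call was lost without normoxia WT replicate 1 (−0.34) or 3 (−0.25), without hypoxia WT replicate 1 (−0.29), 2 (−0.31) or 4 (−0.31), and under 3 other settings, among them the covariate (−0.14). With the covariate the MIR210-KO value of LOXL1 was 0.60.

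Whether the answer to oxygen itself differed between genotypes was tested as an interaction, the difference of the log2 fold changes. MIR210HG-KO differed from WT for 4 of the 10 genes (3 with a higher and 1 with a lower change), where 10.2% of all genes were higher and 12.2% lower. MIR210-KO differed from WT for 5 (3 higher and 2 lower), where 12.5% of all genes were higher and 14% lower. MIR210HG-KO differed from MIR210-KO for 1, which was higher, where 2.03% of all genes were higher and 1.51% lower. LOX was called in each: 0.60 ± 0.10 for MIR210HG-KO over WT (adjusted p = 8.4e-05), −0.78 ± 0.10 for MIR210-KO over WT (2.81e-07) and 1.39 ± 0.10 for MIR210HG-KO over MIR210-KO (2.16e-10). The LOX response was thus the smallest of the 3 in MIR210-KO and the largest in MIR210HG-KO. Without the 4 libraries that stand apart these values were 0.61, −0.88 and 1.49.

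PLOD1 and LOXL2 were called against WT in each knockout, in comparisons that share the WT libraries. PLOD1 had 0.47 ± 0.11 in MIR210HG-KO (adjusted p = 0.00134) and 0.66 ± 0.10 in MIR210-KO (1.54e-05), and LOXL2 had 0.76 ± 0.13 (6.86e-05) and 0.65 ± 0.14 (0.000524). For PLOD1 this means a fall in WT that was smaller or near 0 in the knockouts, and for LOXL2 a rise that WT did not show. LOXL1 (0.69 ± 0.17, adjusted p = 0.00289) and LOXL3 (−0.54 ± 0.14, adjusted p = 0.00436) differed between MIR210-KO and WT. For P4HA1 the interaction of MIR210HG-KO with WT was −0.26 ± 0.08 (adjusted p = 0.0196), and the call was lost without normoxia WT replicate 3 (−0.23) or normoxia MIR210HG-KO replicate 4 (−0.24) and with upper quartile factors (−0.22). The interactions of PLOD3 and P4HA2 were 0.22 ± 0.11 and 0.20 ± 0.10 for MIR210HG-KO and 0.15 ± 0.11 and 0.17 ± 0.10 for MIR210-KO, none of them called. PLOD2 had 0.23 ± 0.09 in MIR210HG-KO (adjusted p = 0.0589), and was called without normoxia MIR210HG-KO replicate 3 (0.29) or 4 (0.26) or hypoxia WT replicate 2 (0.27), and under 4 other settings. Between the knockouts PLOD2 was 0.21 ± 0.09 (adjusted p = 0.204) and LOXL1 −0.44 ± 0.15 (adjusted p = 0.114), and both were called without normoxia MIR210HG-KO replicate 3 (0.29 and −0.54).

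Knockout against WT at each oxygen level asks how the levels of these enzymes differed between the lines labelled as knockouts and WT. LOXL1 was higher in both knockouts at both oxygen levels, LOX and LOXL2 moved in directions that depended on the knockout and the oxygen level, and P4HA1 was lower in both knockouts in hypoxia. In hypoxia 4 of the 10 genes were higher and 3 lower in MIR210HG-KO, where 24.4% of all genes were higher and 30.2% lower, and 2 were higher and 6 lower in MIR210-KO, where the shares were 28.2% and 27.7%. In normoxia 2 were higher and 6 lower in MIR210HG-KO, where 15.6% of all genes were higher and 19.6% lower, and 2 were higher and 5 lower in MIR210-KO, where the shares were 22.6% and 21.6%. Libraries did not overlap for 5 genes in hypoxia MIR210HG-KO and 6 in hypoxia MIR210-KO, where 45% and 45.1% of all genes did not. In normoxia these counts were 6 in MIR210HG-KO and 7 in MIR210-KO, where 35.2% and 47.7% of all genes did not. The median log2 fold change of the 10 genes was 0.05 and −0.25 in hypoxia MIR210HG-KO and MIR210-KO and −0.24 and −0.25 in normoxia, with medians of all genes within 0.04 of 0. The knockouts are set against the same WT libraries, so their values are not independent of each other.

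**Figure D3:**
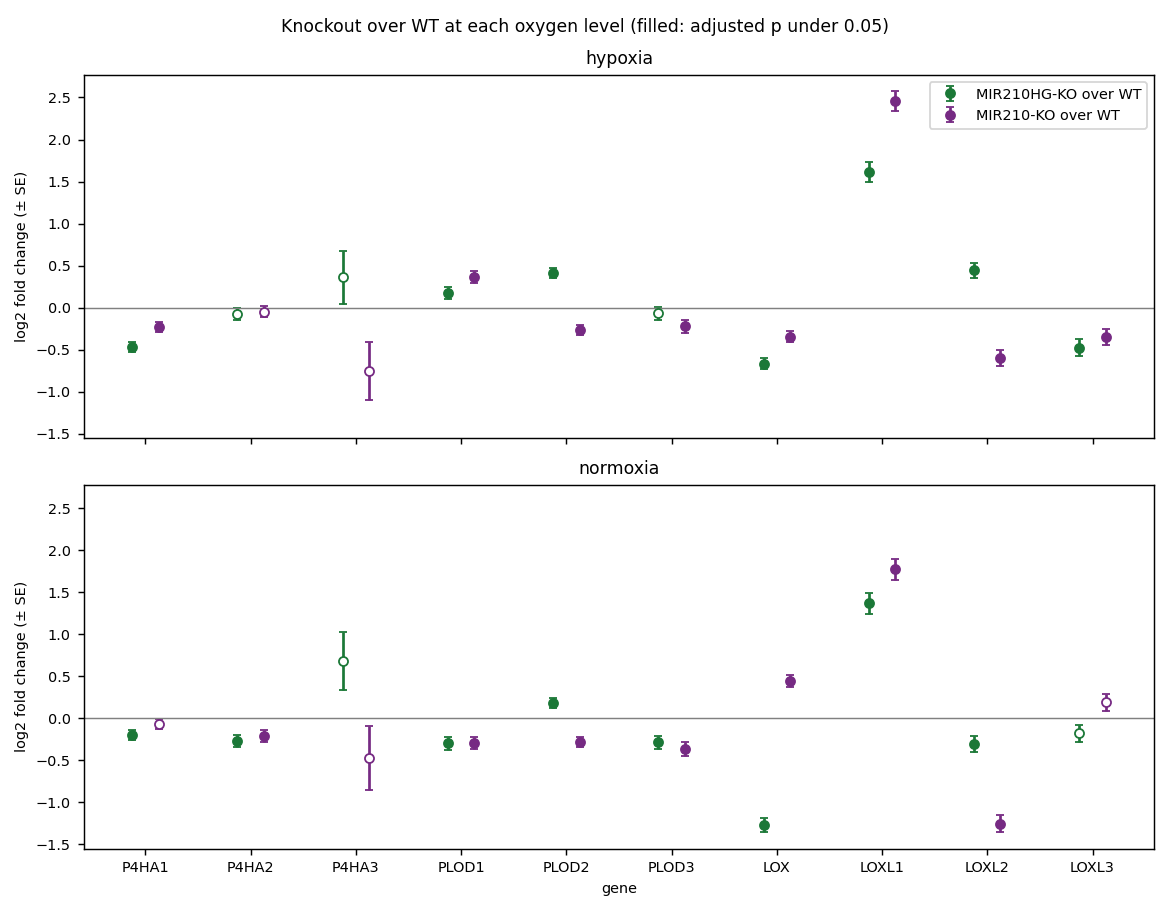
Log2 fold change of MIR210HG-KO over WT and of MIR210-KO over WT (vertical axis, bars are the standard error) in hypoxia above and normoxia below; filled points passed an adjusted p of 0.05. LOXL1 lies between 1.37 and 2.46 in every comparison, and LOX lies at −1.27 in normoxia MIR210HG-KO and 0.44 in normoxia MIR210-KO.

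LOXL1 had 11.1, 11.2, 11.0 and 11.6 CPM in hypoxia MIR210HG-KO, 22.3, 19.7, 18.0 and 20.4 CPM in hypoxia MIR210-KO and 3.21, 3.43, 4.55 and 3.45 CPM in hypoxia WT. In normoxia it had 13.3, 13.9, 9.10 and 11.7 CPM in MIR210HG-KO, 15.9, 13.6, 18.2 and 15.7 CPM in MIR210-KO and 4.58, 4.42, 5.41 and 4.15 CPM in WT. Every knockout library was above every WT library. In hypoxia it was 3.06-fold higher in MIR210HG-KO (log2 1.61 ± 0.12, adjusted p = 9.52e-13) and 5.49-fold higher in MIR210-KO (2.46 ± 0.12, 1.09e-17). In normoxia it was 2.58-fold higher in MIR210HG-KO (1.37 ± 0.12, 1.63e-10) and 3.41-fold higher in MIR210-KO (1.77 ± 0.12, 1.37e-13). Exons of the antisense gene LOXL1-AS1 cover 335 bases, 9.21% of the LOXL1 exon bases, and the strand setting of the counting is not given in the sources used here, so reads of the pair could be mixed. LOXL1-AS1 had log2 fold changes of 0.92 ± 0.10 and 0.47 ± 0.10 in hypoxia MIR210HG-KO and MIR210-KO and 0.23 ± 0.11 and 0.01 ± 0.11 in normoxia. Those of LOXL1 were larger in each comparison, and between the knockouts in hypoxia LOXL1-AS1 was higher in MIR210HG-KO (0.45 ± 0.10) and LOXL1 lower (−0.84 ± 0.11). The part of LOXL1-AS1 reads in the LOXL1 values was not tested.

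LOX, whose library values are given above, was lower in hypoxia MIR210HG-KO (−0.67 ± 0.06, adjusted p = 2.84e-10) and hypoxia MIR210-KO (−0.34 ± 0.06, adjusted p = 3.28e-05) than in hypoxia WT. In normoxia it was 2.41 times lower in MIR210HG-KO (−1.27 ± 0.08, adjusted p = 7.31e-14) but 1.36-fold higher in MIR210-KO (0.44 ± 0.07, adjusted p = 7.93e-06). Exons of SRFBP1, on the other strand, cover 2.49% of the LOX exon bases.

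LOXL2 had 20.7, 22.8, 25.3 and 21.3 CPM in hypoxia MIR210HG-KO, 11.4, 10.1, 9.87 and 12.3 CPM in hypoxia MIR210-KO and 15.8, 18.2, 15.7 and 16.5 CPM in hypoxia WT. In normoxia it had 15.6, 14.4, 12.5 and 17.0 CPM in MIR210HG-KO, 6.89, 7.03, 8.81 and 8.27 CPM in MIR210-KO and 19.99, 18.1, 17.4 and 18.2 CPM in WT. MIR210-KO was the lowest genotype at both oxygen levels, without overlap. Its log2 fold change over WT was −0.60 ± 0.09 in hypoxia and −1.25 ± 0.10 in normoxia. MIR210HG-KO was higher than WT in hypoxia (0.45 ± 0.09, adjusted p = 8.69e-05) and lower in normoxia (−0.31 ± 0.09, adjusted p = 0.01). The normoxia call was lost without normoxia WT replicate 1 (−0.26) or normoxia MIR210HG-KO replicate 3 (−0.23). LOXL3 was lower than WT in hypoxia, with −0.47 ± 0.10 in MIR210HG-KO and −0.35 ± 0.10 in MIR210-KO and overlapping libraries, and was not called in normoxia. Its normoxia MIR210-KO libraries, at 15.1 to 15.9 CPM, were nevertheless all above the normoxia WT libraries, at 12.9 to 14.6 CPM. HTRA2, on the other strand, covers 14.3% of the LOXL3 exon bases, and its hypoxia log2 fold changes over WT were −0.45 ± 0.07 in MIR210HG-KO and −0.81 ± 0.07 in MIR210-KO. The part of HTRA2 reads in the LOXL3 values was not tested.

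Of the hydroxylases, PLOD2 was higher in hypoxia MIR210HG-KO (0.41 ± 0.06, adjusted p = 1.21e-06) and lower in hypoxia MIR210-KO (−0.27 ± 0.06, adjusted p = 0.000449) than in hypoxia WT. In normoxia it was lower in MIR210-KO (−0.28 ± 0.06, adjusted p = 0.000468), and in MIR210HG-KO its 0.18 ± 0.06 (adjusted p = 0.0248) was no longer called without normoxia WT replicate 1 (0.17) or 3 (0.17), without normoxia MIR210HG-KO replicate 3 (0.13) or 4 (0.16), without the 4 libraries that stand apart (0.12), with upper quartile factors (0.16) or with only the groups compared (0.19, adjusted p = 0.0543). P4HA1 was lower in hypoxia, at log2 fold changes of −0.46 ± 0.06 in MIR210HG-KO (adjusted p = 2.33e-08) and −0.23 ± 0.06 in MIR210-KO (adjusted p = 0.000723). In normoxia its value was −0.07 ± 0.06 in MIR210-KO (not called) and −0.20 ± 0.06 in MIR210HG-KO (adjusted p = 0.00751), a call that was lost without normoxia WT replicate 4 (−0.15) or normoxia MIR210HG-KO replicate 1 (−0.17) or 2 (−0.16) and with no filter on low counts (−0.17). P4HA2 was not called in hypoxia. In normoxia it had −0.27 ± 0.07 in MIR210HG-KO and −0.21 ± 0.07 in MIR210-KO, and the second call was lost without normoxia WT replicate 2 (−0.16) or 4 (−0.19) or normoxia MIR210-KO replicate 4 (−0.19).

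PLOD1 in normoxia had 79.7, 78.7, 58.9 and 72.2 CPM in MIR210HG-KO, 71.1, 71.5, 73.1 and 74.2 CPM in MIR210-KO and 91.9, 91.9, 84.4 and 87.6 CPM in WT. Both knockouts lay below WT without overlap (−0.30 ± 0.07 in each). Without the 4 libraries that stand apart the values were −0.21 in MIR210HG-KO and −0.30 in MIR210-KO, both still called. In hypoxia the order turned, with 75.0, 66.1, 73.8 and 70.1 CPM in MIR210-KO, all above the 49.02 to 62.7 CPM of WT (0.36 ± 0.07, adjusted p = 0.000101). In hypoxia MIR210HG-KO the value was 0.17 ± 0.07 at an adjusted p of 0.0499, with overlapping libraries. Leaving out any of 17 of the 24 libraries ended that call, at values of 0.12 to 0.19. PLOD3 was below WT in normoxia in both knockouts, at log2 fold changes of −0.29 ± 0.08 in MIR210HG-KO and −0.37 ± 0.08 in MIR210-KO. Normoxia MIR210HG-KO replicate 3 had 60.6 CPM of PLOD3 against 76.8 to 87.0 CPM in the others of its group, and without it the first value was −0.18. In hypoxia PLOD3 was not called in MIR210HG-KO (−0.07 ± 0.08). In hypoxia MIR210-KO it had −0.22 ± 0.08 (adjusted p = 0.0197), a call lost without hypoxia WT replicate 3 (−0.20) or hypoxia MIR210-KO replicate 3 (−0.20) or 4 (−0.21) and with upper quartile factors (−0.16).

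Set directly against each other, the knockouts differed in LOX, LOXL1, LOXL2, PLOD2 and P4HA3 at both oxygen levels. In hypoxia 3 of the 10 genes were higher and 4 lower in MIR210HG-KO than in MIR210-KO, where 26% of all genes were higher and 29% lower. In normoxia 3 were higher and 3 lower, where 23.4% of all genes were higher and 25.8% lower. Libraries did not overlap for 5 of the 10 genes at either oxygen level, where 50.6% of all genes in hypoxia and 44.4% in normoxia did not. LOXL2 was higher in MIR210HG-KO by 1.05 ± 0.09 in hypoxia and 0.94 ± 0.10 in normoxia, and PLOD2 by 0.68 ± 0.06 and 0.46 ± 0.06. LOX was lower in MIR210HG-KO, at −0.33 ± 0.07 in hypoxia and −1.71 ± 0.08 in normoxia, and LOXL1 at −0.84 ± 0.11 and −0.40 ± 0.11. P4HA1 was lower in hypoxia (−0.23 ± 0.06), and LOXL3 in normoxia (−0.37 ± 0.10). P4HA3, at under 1.5 CPM in every library, was higher in MIR210HG-KO by 1.12 ± 0.34 in hypoxia (adjusted p = 0.00611) and 1.16 ± 0.36 in normoxia (adjusted p = 0.00845). Its normoxia call was lost without MIR210HG-KO replicate 1, the library with 1.43 CPM (0.90, adjusted p = 0.0561). Exons of PPME1, on the other strand, cover 4.14% of the P4HA3 exon bases. PPME1 had 70.9 CPM in MIR210HG-KO and 48.2 CPM in MIR210-KO in hypoxia, and 75.6 and 53.4 CPM in normoxia. It was also higher in MIR210HG-KO, by 0.56 ± 0.06 in hypoxia and 0.50 ± 0.06 in normoxia. The part of PPME1 reads in the P4HA3 values was not tested. PLOD1 had −0.19 ± 0.07 in hypoxia (adjusted p = 0.0293) and lost the call without any of 6 libraries: hypoxia MIR210HG-KO replicates 1, 2 and 4 and hypoxia MIR210-KO replicates 1, 3 and 4, at −0.19 to −0.15. It was also lost with DESeq2 (−0.16, adjusted p = 0.0705), RLE factors (−0.16, adjusted p = 0.0684) and the covariate (−0.15, adjusted p = 0.0585).

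The make-up of each family, as shares of its summed TPM, is given as a description. P4HA1 made up 93.2%, 94.2% and 94.8% of P4HA transcripts in hypoxia MIR210HG-KO, MIR210-KO and WT, against 83.9%, 85.2% and 83.8% in normoxia. PLOD2 made up 75.9%, 65.3% and 71.3% of PLOD transcripts in hypoxia, against 39.1%, 32.2% and 31.4% in normoxia in the same genotype order. In normoxia PLOD1 and PLOD3 made up 30.3% and 30.6% in MIR210HG-KO, where PLOD2 was the largest, 34.7% and 33.1% in MIR210-KO, and 34.2% and 34.3% in WT. The normoxia MIR210HG-KO libraries were spread widely. Their PLOD2 share ran from 34.2% to 47.2%, with PLOD1 at 26.8% to 32.5% and PLOD3 at 25.9% to 33.4%. In hypoxia PLOD2 was the major one in each genotype. Among the 4 oxidases LOX made up 50.5% in hypoxia MIR210HG-KO, 54.4% in hypoxia MIR210-KO and 66.2% in hypoxia WT, against 13.7%, 32.2% and 29.8% in normoxia. LOXL1 made up 14.8%, 22.8% and 4.04% in hypoxia and 32.8%, 31.9% and 11.8% in normoxia. The summed TPM of the oxidases was 93.7 ± 2.36, 103 ± 3.38 and 105 ± 13.01 in hypoxia, against 35.8 ± 3.45, 47.0 ± 2.00 and 38.5 ± 0.858 in normoxia (SD, n = 4 each). TPM is not TMM-scaled, and between oxygen levels it can differ from CPM in direction. PLOD1 in MIR210-KO averaged 57.0 TPM in hypoxia and 46.9 in normoxia, but 71.2 and 72.4 CPM. In MIR210HG-KO it averaged 52.7 and 48.7 TPM, but 62.4 and 72.4 CPM. In WT it was lower in hypoxia on both scales, at 43.1 and 59.3 TPM and 55.4 and 88.9 CPM.

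**Figure D4:**
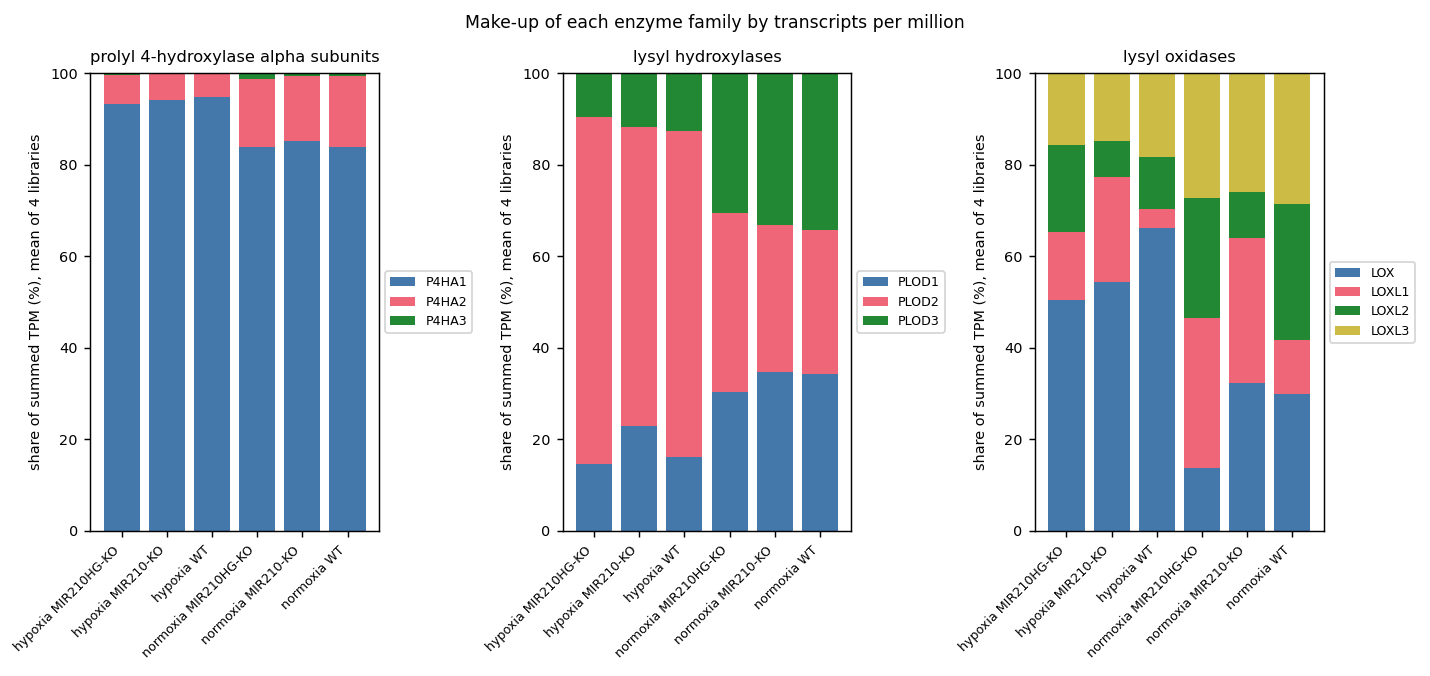
Share of each gene in the summed TPM of its family (stacked bars, mean of 4 libraries, linear axis from 0 to 100%), for the 3 P4HA, the 3 PLOD and the 4 lysyl oxidase genes in the 6 groups. PLOD2 takes 65.3% to 75.9% of the PLOD sum in hypoxia, and LOXL1 takes a larger share of the oxidase sum in the knockouts than in WT.

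The genes whose log2 CPM followed each enzyme most closely over the 24 libraries were ranked among 11110 protein-coding genes by Pearson's r, as a description, since the libraries share oxygen level and genotype. They were INSIG2 (0.985), CXCR4 (0.983) and BHLHE40 (0.983) for P4HA1, EGLN1 (0.990), BNIP3L (0.989) and PKIA (0.987) for PLOD2, and BHLHE41 (0.989), PFKFB3 (0.977) and FUT11 (0.976) for LOX. For P4HA2 they were ANKZF1 (0.971), ENO3 (0.970) and PROCA1 (0.969), and for PLOD3 they were MED16 (0.991), MAGED1 (0.986) and BCKDK (0.986). LOXL1 was followed by HOXA5 (0.977) and CDC42BPG (0.963), and LOXL2 by SLC9A8 (0.958), AHNAK (0.938) and ULK2 (0.936). The closest genes were less alike for PLOD1, with VWA1 (0.902), TCIRG1 (0.900) and PTPN18 (0.898), and for LOXL3, with INPP1 (0.885), TRIB1 (0.867) and PHF21B (0.860). P4HA3 was too low to be ranked. No gene appeared in more than 1 of these lists.

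Of 24 other genes of collagen biosynthesis (chaperones, other hydroxylases, glycosyltransferases, propeptidases and LOXL4), all were tested. In hypoxia 4 were higher and 10 lower in MIR210HG-KO, where 25.7% of all genes went up and 28.3% down. In MIR210-KO 6 were higher and 8 lower (29.3% and 29.5% of all genes), and in WT 6 were higher and 11 lower (29.6% and 30.7%). Their median log2 fold changes were −0.15, −0.01 and −0.15, beside 0.44, 0.42 and 0.42 for the 10 enzymes and 0.03, 0.04 and 0.002 for all genes. LOXL4, the remaining lysyl oxidase, had 5.18 ± 0.586 CPM in hypoxia MIR210HG-KO against 2.40 ± 0.703 in normoxia, 9.52 ± 0.733 in hypoxia MIR210-KO against 3.33 ± 0.263, and 5.52 ± 0.579 in hypoxia WT against 2.82 ± 0.312 (SD, n = 4 each). It rose by 1.12 ± 0.15, 1.51 ± 0.13 and 0.96 ± 0.14 on the log2 scale. COLGALT1, which adds galactose to hydroxylysine, fell in each genotype, with log2 fold changes of −0.69 ± 0.06 in MIR210HG-KO, −0.52 ± 0.06 in MIR210-KO and −0.85 ± 0.06 in WT. Its relative COLGALT2 rose by 0.69 ± 0.09, 0.74 ± 0.08 and 0.38 ± 0.08 in the same order. FKBP14, a prolyl isomerase of collagen folding, had 0.13 ± 0.07 in MIR210HG-KO (not called) and rose by 0.20 ± 0.07 in MIR210-KO and 0.98 ± 0.07 in WT. P3H3, a prolyl 3-hydroxylase family protein, fell in each, with −0.59 ± 0.08 in MIR210HG-KO, −0.86 ± 0.08 in MIR210-KO and −0.63 ± 0.08 in WT. Against WT in hypoxia 4 of the 24 were higher and 12 lower in MIR210HG-KO (24.4% and 30.2% of all genes), and 9 higher and 7 lower in MIR210-KO (28.2% and 27.7%). In normoxia 1 was higher and 10 lower in MIR210HG-KO (15.6% and 19.6% of all genes), and 6 higher and 8 lower in MIR210-KO (22.6% and 21.6%).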

How the data were processed

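The authors deposited raw counts of reads per gene, 1 table for hypoxia and 1 for normoxia, with gene lengths and positions. Libraries were made from total RNA with a NEBNext Ultra kit, per the labels' protocols. STAR 2.6.1d, featureCounts 1.5.0-p3, DESeq2 1.20.0, edgeR 3.24.3 and GRCh38 are named in the submitters' processing notes. Strand setting and annotation release are not given in the sources used here. Without strand, reads of genes that overlap on opposite strands cannot be told apart. Exons of a single other gene cover 0.948% to 14.3% of a member's exon bases, for every member except PLOD1 and PLOD2. Positions of all 10 members equal those of GENCODE 29.

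Groups were taken from the labels. Counts were fitted in R 4.3.3 with edgeR 4.0.16: filterByExpr, TMM factors, 1 mean per group over all 24 libraries, and two-sided quasi-likelihood F tests for 12 comparisons, with Benjamini-Hochberg adjustment over all 19952 genes and calls at 0.05. Log2 fold changes, CPM and TPM were computed here from the deposited counts; the error of a log2 fold change is a standard error. The tests were also run on counts simulated from the means and spread of the fitted data. The largest correlation between libraries was 0.9976, and 0 columns were identical. Replicate numbers did not pair libraries: their deviations correlated at −0.496 to 0.449.

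Members, lists and tests were chosen with earlier results of these data known. Named beyond the members were, by rule, the 3 called biosynthesis genes of largest change per oxygen comparison, if either group reached 5 CPM, the 3 most alike genes per member averaging at least 5 CPM (1 of them is not reported here), genes overlapping a member, and the targeted genes. Alternatives were RLE or upper quartile scaling, DESeq2 1.42.0, other filters, fewer libraries, a replicate block, and a term for the log2 ratio of genes of at least 8000 bases to genes of at most 1500.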

Additional observations from a re-analysis of the deposited data

Results flagged for a closer look

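The oxygen response differed between genotypes, by the interaction test of edgeR, for these genes (difference of log2 fold changes). For MIR210HG-KO over WT these were LOXL2 (0.76), LOX (0.60), PLOD1 (0.47) and P4HA1 (−0.26). For MIR210-KO over WT they were LOX (−0.78), LOXL1 (0.69), PLOD1 (0.66), LOXL2 (0.65) and LOXL3 (−0.54). For MIR210HG-KO over MIR210-KO it was LOX (1.39). The 3 tests share libraries, so they are not independent of each other.

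PLOD3 in hypoxia WT replicate 2, at 41.1 CPM, lay apart from the other 3 libraries of its group, at 46.8 to 47.9 CPM. This was 1 of 60 groups of 4 libraries checked, and chance alone flags about 1 in 20 groups.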

How the results depend on the processing

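Of 120 log2 fold changes, 76 were called. Of these, 64 kept their call under all of the 33 alternatives that tested their gene, and 12 lost it under at least 1. A further 11 gained a call. The filter at a minimum of 1 CPM removed P4HA3, so its calls were not checked under that alternative. Called counts under the replicate block were 7, 8, 6, 8, 6, 7, 8, 7, 8, 5, 4 and 1, and with each library left out in turn 6 to 7, 6 to 8, 5 to 8, 7 to 9, 6 to 7, 6 to 8, 7 to 8, 7 in each fit, 7 to 8, 5 in each fit, 3 to 6 and 1 to 3. The order is MIR210-KO and MIR210HG-KO over WT and MIR210HG-KO over MIR210-KO in normoxia, the same in hypoxia, the oxygen response in WT, MIR210-KO and MIR210HG-KO, and the interactions of MIR210-KO with WT, MIR210HG-KO with WT and MIR210HG-KO with MIR210-KO. The replicate block ended the call of PLOD1 in hypoxia MIR210HG-KO over WT (0.17, adjusted p = 0.055) and no other. The interaction between the knockouts called 1 gene, but 2 with no filter (LOX, LOXL1) and 4 without the 4 libraries that stand apart (LOX, PLOD1, PLOD2, LOXL1); without normoxia MIR210HG-KO replicate 3 it called 3. The cause was not tested.

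Signs turned for small log2 fold changes. Of called values, PLOD1 in the oxygen response of MIR210HG-KO became 0.022 with the length covariate; the rest were not called. PLOD1 in normoxia MIR210HG-KO over MIR210-KO became 0.018 with DESeq2 and RLE, 0.036 with no filter, 0.0098 with only the groups compared, 0.0134 with the covariate and 0.084 without the 4 libraries. P4HA2 became 0.013 with upper quartile factors in hypoxia MIR210-KO over WT, and 0.0024 with DESeq2 and 0.0023 with RLE in hypoxia MIR210HG-KO over MIR210-KO. In the oxygen response of MIR210-KO, P4HA3 became 0.013 with DESeq2 and RLE, 0.14 with upper quartile factors, 0.023 with no filter and 0.016 with only the groups compared, and PLOD1 became 0.12 with upper quartile factors, 0.0036 with a minimum of 1 CPM and 0.18 with the covariate. In that of MIR210HG-KO, P4HA3 became 0.097 with upper quartile factors, and LOXL1 0.042 with those and 0.19 with the covariate. The interaction of PLOD2 in MIR210-KO became −0.0094 with the covariate and −0.059 without the 4 libraries, and that of P4HA2 between the knockouts −0.032 without them. With each library left out in turn, signs turned within these ranges: PLOD1 −0.042 to 0.083 (normoxia, between the knockouts) and −0.062 to 0.0089 (oxygen response of MIR210-KO); P4HA2 −0.087 to 0.012 (hypoxia, MIR210-KO over WT), −0.066 to 0.010 (hypoxia, between the knockouts) and −0.0058 to 0.076 (interaction between the knockouts). LOXL3 ranged from −0.016 to 0.071 in the oxygen response of MIR210-KO, PLOD2 from −0.027 to 0.057 in the interaction of MIR210-KO and PLOD3 from −0.017 to 0.14 in that between the knockouts. P4HA3 ranged from −0.27 to 0.31 and −0.30 to 0.22 in the oxygen response of MIR210-KO and MIR210HG-KO, and from −0.55 to 0.025 and −0.35 to 0.23 in the interactions of MIR210-KO and between the knockouts.

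Upper quartile factors moved the median log2 fold change of all genes by 0.142 in the oxygen response of MIR210-KO and 0.136 in that of MIR210HG-KO. The share of higher genes among all called was then 64.1% and 62.9%, against 49.8% and 47.6% with TMM. Of the 10 members 6 were higher and 1 lower in each. For the interaction of MIR210HG-KO with WT the split of the members was 4 higher and 0 lower, against 3 and 1. Of 60 group means of CPM, 14 moved by more than 1 SD under other factors, by ratios of 0.96 to 1.07. Depth limits P4HA3, at 43 to 121 counts per group.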
